A study of Homo sapiens with 10 samples.

Results

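The short arm of chromosome 19, band 19p13, holds one of the large groups of human zinc finger genes, and the RNA of these genes was measured in WT cells and in cells without ZNF274. Members were the genes whose symbol is a zinc finger symbol (ZNF, ZFP, ZSCAN, ZKSCAN, ZIM, ZIK, RBAK or HKR with its number, pseudogenes included) and whose start on hg19 chromosome 19 lies between the tip of the short arm and a limit set just ahead of ZNF101 (start 19779605), so that ZNF333 (14800613 to 14844558) is the last member. The rule found 48 genes among the 24050 of both count tables, 45 of them protein-coding and 3 of them pseudogenes, ZNF812P, ZNF887P and ZNF788P. Of the 48, 47 are listed in the table of HEK293T cells, 45 in that of NPCs and 44 in both. No measured value entered the rule.

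Poly(A) RNA of 10 cultures was sequenced. HEK293T, an established line from human embryonic kidney, gave 3 WT libraries (S15, S16, S17) and 3 libraries with genotype ZNF274KO (S18, S19, S20). Neural progenitor cells (NPCs), differentiated through embryoid bodies from the human ESC line H1, gave 2 WT libraries (S3, S5) and 2 ZNF274KO libraries (S1, S2). In the KO lines the ZNF274 gene was deleted with CRISPR-Cas9 and guides on both sides of it, followed by puromycin selection and the growth of single cells or colonies into clones. The submitters describe independent clones of each genotype, but no label says which clone a library came from, so p-values measure the spread between these libraries, which may share a clone. Libraries held 21421013 to 32285876 counts in HEK293T and 18621266 to 23035490 in NPCs. ZNF274 had 423 to 492 counts in the WT HEK293T libraries, 491 and 496 in the WT NPC libraries and 0 in every KO library.

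Most genes of this kind encode KRAB zinc finger proteins. Their C2H2 fingers, each folded around a zinc ion, read DNA, and the KRAB domain recruits TRIM28, which brings the methyltransferase SETDB1, the enzyme that writes H3K9me3, and HP1 proteins that bind this mark. The genes arose by repeated tandem duplication, so neighbours are often close paralogs, and chromosome 19 zinc finger clusters are themselves known to carry H3K9me3. ZNF274 is a KRAB protein that also has a SCAN domain, and it is known to bind the 3′ exons of other zinc finger genes. The comparison of WT and KO cells asks which of the 19p13 genes change their RNA level once ZNF274 is absent, and whether they do so alike in both cell types.

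Protein sequences translated from the annotated transcripts put 40 members in the class of a KRAB A box with fingers. A further 5 had fingers without a KRAB A box, ZNF358, ZNF414, ZNF121, ZNF653 and ZNF491, and the 3 pseudogenes had no protein. None scored as a SCAN protein. The number of fingers ran from 3 in ZNF414 to 19 in ZNF709, with a median of 11. Ordered by position and separated where starts lie more than 0.25 Mb apart, the members formed 3 sub-clusters, and 5 genes stood alone (ZNF557, ZNF358, ZNF414, ZNF558 and ZNF333). The first sub-cluster holds 5 genes from ZNF554 to ZNF77 (hg19 chromosome 19, 2819866 to 2944969), the second 11 genes from ZNF317 to ZNF846 (9251073 to 9903856), and the third 27 genes from ZNF653 to ZNF791 (11594242 to 12750912). Spans of members overlapped on opposite strands for ZNF788P with ZNF20, by 20206 bases, and for ZNF490 with ZNF791, by 22923 bases. Whether reads were counted by strand is not given in the sources used here, so the values within each of these pairs may mix.

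Promoter sequences, taken from RefSeq (GRCh38.p14) as the 250 bases before and 50 bases from each start, were found for 43 members, and each had 1 exact match in hg19, which gives the positions below. The 6 shown are those of the 5 protein-coding genes that were called in one cell type or the other, with that of ZNF69, the paralog whose promoter is most like one of them. Capitals mark the letters CCAAT and GGGCGG, or their reverse complements ATTGG and CCGCCC. ZNF433 lies at chr19:12146445-12146744, ZNF878 at chr19:12163727-12164026, ZNF699 at chr19:9420465-9420764 and ZNF558 at chr19:8942931-8943230, all on the minus strand, and ZNF439 at chr19:11959291-11959590 and ZNF69 at chr19:11998347-11998646 on the plus strand.
ZNF433: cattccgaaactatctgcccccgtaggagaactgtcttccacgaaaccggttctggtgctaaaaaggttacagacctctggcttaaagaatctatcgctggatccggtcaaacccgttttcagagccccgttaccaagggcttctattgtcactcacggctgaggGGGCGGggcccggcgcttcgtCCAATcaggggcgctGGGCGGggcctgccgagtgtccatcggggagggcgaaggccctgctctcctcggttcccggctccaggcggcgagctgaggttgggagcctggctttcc
ZNF878: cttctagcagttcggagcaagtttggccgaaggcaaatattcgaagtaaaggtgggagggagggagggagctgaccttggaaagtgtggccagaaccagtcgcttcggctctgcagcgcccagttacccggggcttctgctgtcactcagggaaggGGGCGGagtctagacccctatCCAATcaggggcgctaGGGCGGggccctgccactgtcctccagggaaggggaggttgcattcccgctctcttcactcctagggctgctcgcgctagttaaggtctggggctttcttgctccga
ZNF439: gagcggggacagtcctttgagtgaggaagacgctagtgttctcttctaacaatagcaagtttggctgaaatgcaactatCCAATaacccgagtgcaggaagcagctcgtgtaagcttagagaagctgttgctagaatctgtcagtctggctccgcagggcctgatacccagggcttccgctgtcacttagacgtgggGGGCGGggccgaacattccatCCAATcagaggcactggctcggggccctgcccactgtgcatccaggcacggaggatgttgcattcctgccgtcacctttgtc
ZNF69: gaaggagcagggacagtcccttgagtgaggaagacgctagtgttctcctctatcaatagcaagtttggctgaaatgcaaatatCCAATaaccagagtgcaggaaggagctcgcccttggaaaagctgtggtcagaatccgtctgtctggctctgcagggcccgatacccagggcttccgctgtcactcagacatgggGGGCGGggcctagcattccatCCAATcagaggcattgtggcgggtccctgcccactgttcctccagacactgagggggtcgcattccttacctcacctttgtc
ZNF699: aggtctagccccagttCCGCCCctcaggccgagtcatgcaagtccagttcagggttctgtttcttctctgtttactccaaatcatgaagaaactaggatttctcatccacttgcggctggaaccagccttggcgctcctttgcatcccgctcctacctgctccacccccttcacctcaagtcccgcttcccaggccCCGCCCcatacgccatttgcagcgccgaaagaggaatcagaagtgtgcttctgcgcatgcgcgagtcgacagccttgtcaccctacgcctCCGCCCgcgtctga
ZNF558: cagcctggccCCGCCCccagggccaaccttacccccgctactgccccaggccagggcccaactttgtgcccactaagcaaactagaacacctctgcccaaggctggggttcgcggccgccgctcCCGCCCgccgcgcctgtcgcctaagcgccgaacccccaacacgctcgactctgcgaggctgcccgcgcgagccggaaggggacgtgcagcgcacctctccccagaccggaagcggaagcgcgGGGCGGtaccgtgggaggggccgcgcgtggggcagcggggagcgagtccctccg

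ZNF433 and ZNF878 each held 1 CCAAT and 2 GGGCGG matches in one arrangement, with GGGCGG on either side of CCAAT, and they shared a run of 16 identical bases around it and 203 identical bases of 274 aligned. This likeness, 67.7% of the 300 bases, was not particular to the pair. ZNF878 was closer to ZNF625 (74.7%) and ZNF844 (72%), which were not called. Longer runs were shared by ZNF878 with ZNF627 (21 bases) and by ZNF433 with ZNF625 (19 bases). The promoters of ZNF439 and ZNF69 had 259 identical bases, 86.3% of the promoter length of 300, the highest of the 903 member pairs, whose median was 50.3%. ZNF699 and ZNF558, which lie outside the third sub-cluster, each held 3 GGGCGG and 0 CCAAT matches. The start in RefSeq lies 62 bases inside the annotated span of ZNF433 and 10 bases inside that of ZNF558, and at the edge of the span for ZNF878, ZNF439 and ZNF699.

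Over both strands of the 300 bases, CCAAT was present in 30 of the 43 member promoters (69.8%) and in 34.6% of 35116 RefSeq promoters of the same length. GGGCGG was present in 38 (88.4%, against 45% of all promoters). TATAAA was in 0 of the 43, against 11.5% of all, and CACGTG in 0, against 7.26%. CCGGAAG was found in 6 members (14%, against 10.3%). The median number of CpG dinucleotides was 18 in members and 14 in all promoters, and the median GC content was 61% and 58.7%. These counts describe letters in a window, and the member promoters are related by descent, so they are not independent observations.

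In WT HEK293T cells the members ranged from no counts at all to 67.2 CPM, the count relative to library size scaled by the trimmed mean of M values (TMM), with a median of 3.91. Of the 47 listed, 11 had 3 or fewer counts in each WT library, 20 lay between 1 and 10 CPM and 11 at 10 CPM or above. In WT NPCs the median over 45 members was 5.74 CPM and the highest 81.3 CPM, with 24 members between 1 and 10 CPM and 14 at 10 or above. Per length of exons (RPKM), the highest members in WT HEK293T were ZNF317 (13.3 RPKM), at the head of the second sub-cluster, and ZNF358 (12.5 RPKM). In the first sub-cluster ZNF57 was highest (5.38 RPKM), and in the third ZNF823 (3.80 RPKM). In WT NPCs ZNF561 was highest (12.9 RPKM), followed by ZNF627 in the third sub-cluster (9.37 RPKM) and ZNF358 (9.16 RPKM), and ZNF77 led the first sub-cluster (1.97 RPKM).

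A few members were on in one cell type and near 0 in the other. The tables were normalized apart, so these levels are set side by side as counts, with no test. ZNF558, known as a KRAB protein of human forebrain progenitors that represses SPATA18, had 0 counts in all 6 HEK293T libraries, and 181 and 232 counts in the WT NPC libraries. ZNF844 had 1, 0 and 0 counts in WT HEK293T and 467 and 344 in WT NPCs. ZNF69 had 3, 0 and 2 counts against 267 and 292. ZNF562 went the other way, with 527, 668 and 568 counts in WT HEK293T and 7 and 0 in WT NPCs, although its neighbour ZNF561 had 1136 to 1699 counts in each of these 5 libraries. In the 44 members listed in both tables, mean WT CPM in HEK293T and NPCs had a Spearman correlation of 0.60, a description across genes that differ in length and expression in general.

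**Figure D1:**
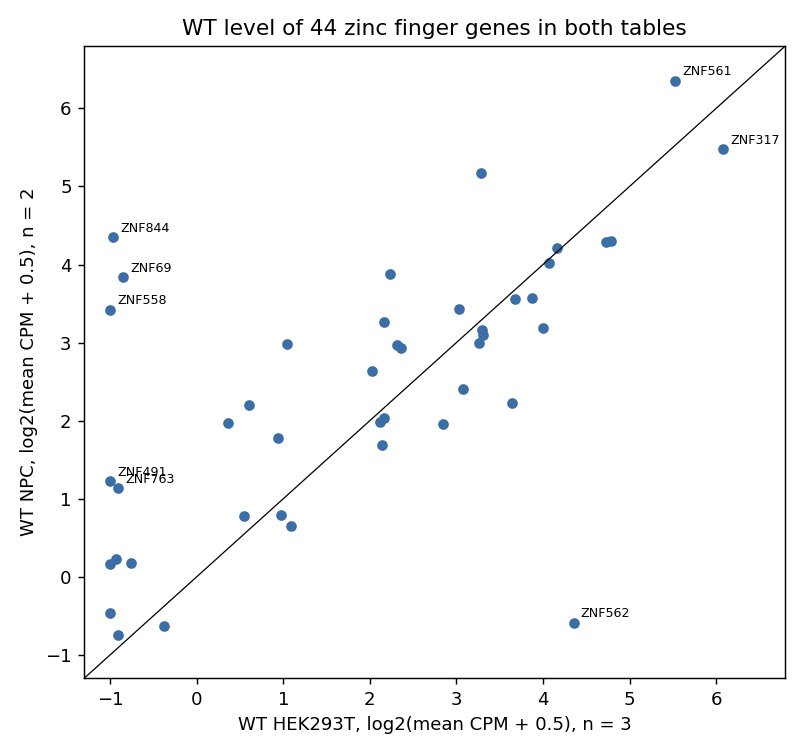
Mean WT level of the 44 zinc finger genes of 19p13 listed in both tables, as log2(CPM + 0.5), in HEK293T (horizontal axis, 3 libraries) and in NPCs (vertical axis, 2 libraries), with the line of equal values and names for those farthest from it and for ZNF317 and ZNF561. ZNF844, ZNF69 and ZNF558 sit at the left edge, with almost no counts in HEK293T, and ZNF562 lies far below the line.

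In HEK293T cells, 2 of the 42 members tested were called higher in KO than in WT libraries and 0 lower. A call needed an adjusted P value below 0.05 and a fold change, FC, above 2 (edgeR's quasi-likelihood test with adjustment over all genes). Of all 19018 genes tested, 0.478% were called up and 0.0105% down. Both genes that rose, ZNF433 and ZNF878, encode KRAB proteins and are direct neighbours in the third sub-cluster, on the same strand with starts 17220 bases apart. In bulk RNA, a change in the number of cells that express a gene and a change in RNA per cell cannot be told apart.

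ZNF433 (ENSG00000197647, chromosome 19, 12125530 to 12146556, 18 fingers) had 59, 44 and 35 counts in WT and 147, 176 and 136 in KO. All KO libraries lay above all WT libraries. The level rose from 1.56 ± 0.394 to 5.64 ± 0.698 CPM (SD, n = 3 each), a log2 FC of 1.85 with a standard error of 0.291 (adjusted p = 0.0153, edgeR). Without WT library S16 the adjusted p was 0.124, and without S17 it was 0.128.

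ZNF878 (ENSG00000257446, chromosome 19, 12154620 to 12163776, 14 fingers) had 0, 0 and 2 counts in WT and 16, 27 and 27 in KO, so the groups did not overlap and every WT library was at or below 3 counts. The KO level was 0.846 ± 0.156 CPM (SD, n = 3), and the ratio of KO to WT, from summed counts, was 37.7, with an exact 95% counting interval of 10.1 to 317 (adjusted p = 0.0249, edgeR). The interval covers counting error only. The call was lost without any one of S15, S16, S19 or S20, with adjusted p of 0.116, 0.154, 0.0705 and 0.0758. Of the 50-base words in its transcripts, 1.91% also occur in another zinc finger gene. Other genes were recognized by the start of their symbol. A record that joins a gene to its neighbour would therefore count as another gene, here and below.

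ZNF563 and ZNF442, a second pair of same-strand neighbours in the third sub-cluster, had the smallest P values among members not called. ZNF563 had 24, 20 and 41 counts in WT and 68, 119 and 99 in KO libraries, a log2 FC of 1.84 ± 0.348 (SE; edgeR adjusted p = 0.0539). ZNF442 had 27, 34 and 29 counts in WT and 61, 96 and 88 in KO libraries, a log2 FC of 1.54 ± 0.305 (SE; edgeR adjusted p = 0.0697). In both genes all KO libraries were above all WT libraries, and both were called by DESeq2, by library size alone as the scaling and by a fit of all 10 libraries. ZNF563 was also called by voom, the test of the study's methods (adjusted p = 0.0483), and without the filter on low counts (adjusted p = 0.0354), and ZNF442 by neither. ZNF266, in the second sub-cluster, came next, with 830, 738 and 840 counts in WT and 854, 1267 and 886 in KO libraries, a log2 FC of 0.42 (adjusted p = 0.558).

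**Figure D2:**
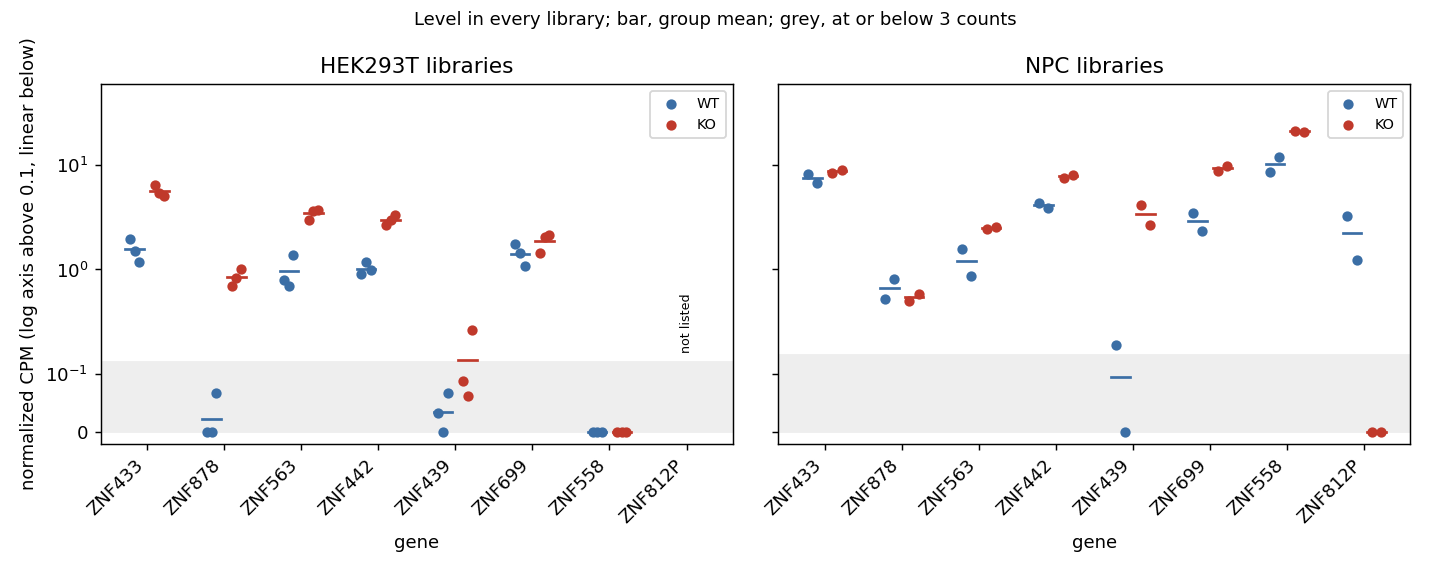
CPM of 8 members in every library (log axis above 0.1, linear below), HEK293T on the left and NPC on the right, WT in blue and KO in red, with bars at group means and grey where a value is at or below 3 counts. In HEK293T the KO points of ZNF433, ZNF878, ZNF563 and ZNF442 lie above their WT points, and in NPCs those of ZNF439, ZNF699 and ZNF558 do so while ZNF812P is at 0 in KO.

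TRIM28, through which KRAB proteins repress, was itself uneven among the KO HEK293T libraries. It stood at 1027, 813 and 992 CPM in WT, and at 313 and 353 CPM in KO libraries S18 and S19 but 846 CPM in S20, within the WT range (log2 FC -0.90, edgeR adjusted p = 0.537). ZNF433 was at 6.42, 5.40 and 5.08 CPM and ZNF878 at 0.699, 0.829 and 1.01 CPM in S18, S19 and S20. The part of TRIM28 in the differences of the 19p13 genes was not tested.

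Small positive differences were more frequent than negative ones over the members in HEK293T. A log2 FC above 0 was found for 31 of 42 members (51.4% of all genes), an unadjusted P value below 0.05 for 11 in the upward direction and 0 in the downward one (4.43% and 2.69% of all genes), and KO libraries all above WT libraries for 16, with 0 all below (7.16% and 5.27% of all genes). The median log2 FC was 0.40, against 0.011 over all genes tested, and it was 0.22 over the 32 members with a mean of at least 1 CPM, so genes with few counts contributed to the larger value. Read library by library on log2(CPM + 0.5), the member median against the mean of the WT libraries was 0.20, 0.32 and 0.22 in the KO libraries, and that of each WT library against the mean of the other 2 ran from -0.035 to 0.026. The corresponding medians over all genes ran from -0.019 to 0.

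**Figure D3:**
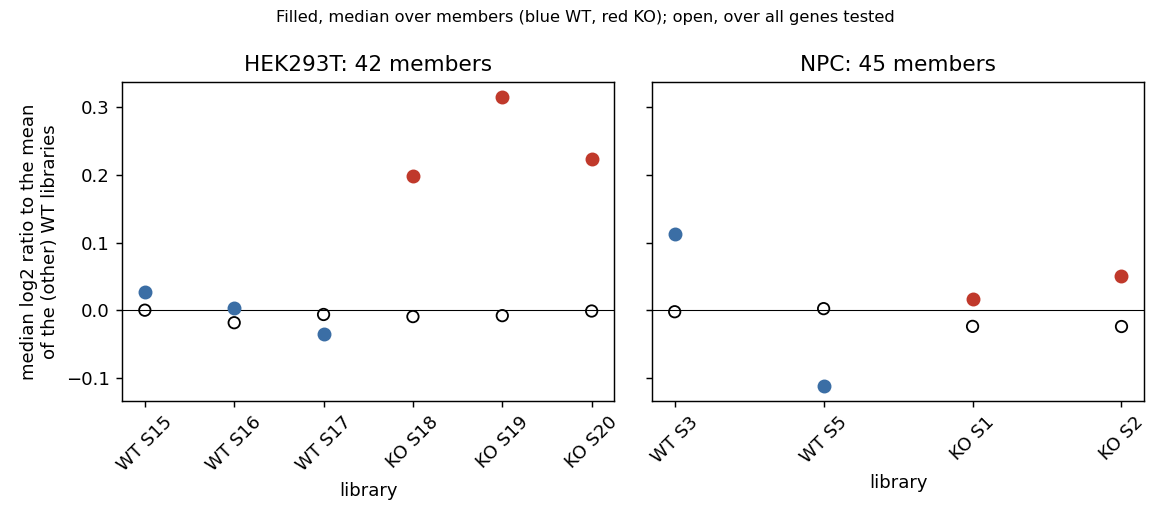
Median over the tested members (filled, blue WT and red KO) and over all genes (open) of the log2 ratio of each library to the mean of the WT libraries, a WT library being set against the others of its kind, on log2(CPM + 0.5). In HEK293T the 3 KO libraries lie at 0.20 to 0.32, above every WT library, whereas in NPCs the KO medians of 0.016 and 0.050 fall between those of the WT libraries, -0.11 and 0.11.

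By position, 22 of the 24 tested genes of the third sub-cluster had a log2 FC above 0, with a median of 0.50 and summed levels of 97.7 to 102 CPM in WT and 127 to 148 CPM in KO libraries. The second sub-cluster had 5 of 9 above 0 and a median of 0.0057, and its summed level overlapped between the groups (189 to 203 CPM in WT, 185 to 230.2 CPM in KO). The first had 4 of 5 above 0 and a median of 0.45, with summed levels of 31.7 to 34.2 CPM in WT and 37.2 to 40.7 CPM in KO. The 4 isolated members tested were all below 0, ZNF557 at -0.13, ZNF358 at -0.059, ZNF414 at -0.26 and ZNF333 at -0.43, and none of them passed the test. By protein class, the median was 0.43 over 37 members with a KRAB A box and -0.023 over 4 with fingers alone. Protein-coding genes of other kinds inside the sub-clusters were 7 in number, 5 of them tested in HEK293T, and 0 of these were called or had an unadjusted P value below 0.05 (edgeR), with a median log2 FC of -0.27. For the 217 zinc finger genes of the same chromosome from ZNF101 on, ZNF274 left out, 42 of 201 tested were called up and 0 down, with a median of 0.61. No test of the difference between these lists was run.

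In NPCs, 3 of the 45 members tested were called higher in KO than in WT libraries and 1 lower, where 8.45% of all 20577 genes were called up and 8.36% down. The genes that rose were ZNF439, ZNF699 and ZNF558, each a KRAB protein gene in a different part of 19p13, and the one that fell was the pseudogene ZNF812P. None of the 4 was called in HEK293T, where ZNF558 had no counts and ZNF812P is not listed. Read against these shares, the members were not called more often than genes in general.

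ZNF439 (ENSG00000171291, chromosome 19, 11959541 to 11994565, 11 fingers) had 4 and 0 counts in WT and 84 and 59 in KO. The ratio of KO to WT was 34.2, with an exact 95% counting interval of 13.1 to 127 (adjusted p = 0.00455, edgeR), and the KO level was 3.40 ± 1.05 CPM (SD, n = 2). The interval covers counting error only, and the fitted log2 FC of 5.04 was 4.11 without WT library S5 and 9.14 without S3, which leaves a WT library of 0 counts, so the size of the rise is uncertain. ZNF69 is the next gene downstream, and its promoter is the closest match to that of ZNF439. It had 267 and 292 counts in WT and 154 and 219 in KO. Its log2 FC of -0.66 did not pass (adjusted p = 0.0726, edgeR). In WT NPCs ZNF439 was thus near 0 while ZNF69 stood at 13.8 ± 1.63 CPM (SD, n = 2). In HEK293T both were close to 0, with 1, 0, 2 and 2, 2, 7 counts for ZNF439 in WT and KO, and 3, 0, 2 and 0, 1, 1 for ZNF69. Of the 50-base words of ZNF439 transcripts, 7.29% also occur in another zinc finger gene.

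ZNF699 (ENSG00000196110, chromosome 19, 9401816 to 9420514, 14 fingers), the human relative of the fly gene hangover, had 74 and 46 counts in WT and 179 and 216 in KO NPC libraries. Its level rose from 2.93 ± 0.812 to 9.29 ± 0.629 CPM (SD, n = 2 each), a log2 FC of 1.66 ± 0.295 (SE; edgeR adjusted p = 0.00638). Without KO library S2 the adjusted p was 0.0577. ZNF558 (ENSG00000167785, chromosome 19, 8916846 to 8942990, 9 fingers) had 181 and 232 counts in WT and 431 and 462 in KO libraries. Its level rose from 10.2 ± 2.34 to 21.0 ± 0.336 CPM (SD, n = 2 each), a log2 FC of 1.04 ± 0.214 (SE; edgeR adjusted p = 0.0114), close to the threshold of 2-fold. The log2 FC fell below that threshold with library size alone as the scaling (0.93) and without WT library S3 (0.83), and the adjusted p passed 0.05 without KO library S1 (0.0960) or S2 (0.0779).

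ZNF812P (ENSG00000224689, chromosome 19, 9800600 to 9805568), a transcribed pseudogene between ZNF562 and ZNF846, had 68 and 24 counts in WT and no count in S1 or S2. Set against 3 counts per KO library, it was at least 15.7-fold lower (adjusted p = 0.00489, edgeR). Another zinc finger gene holds 13.6% of its 50-base words, and reads from such stretches are not counted where they map to more than one place, since the authors counted only reads with a single mapped position. The WT libraries themselves differed, at 3.22 and 1.23 CPM.

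Members that came closest without being called went both ways. ZNF442 had 91 and 76 counts in WT and 153 and 178 in KO libraries, a log2 FC of 0.92 ± 0.253 (SE; edgeR adjusted p = 0.0335), under the fold threshold. ZNF358, without a KRAB A box, had 383 and 391 counts in WT and 204 and 290 in KO libraries, a log2 FC of -0.72 (adjusted p = 0.0376), also under that threshold. ZNF799, next to ZNF442, had 80 and 67 counts in WT and 115 and 182 in KO libraries, a log2 FC of 0.94 (adjusted p = 0.0548), and 16.2% of its 50-base words occur in another zinc finger gene.

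**Figure D4:**
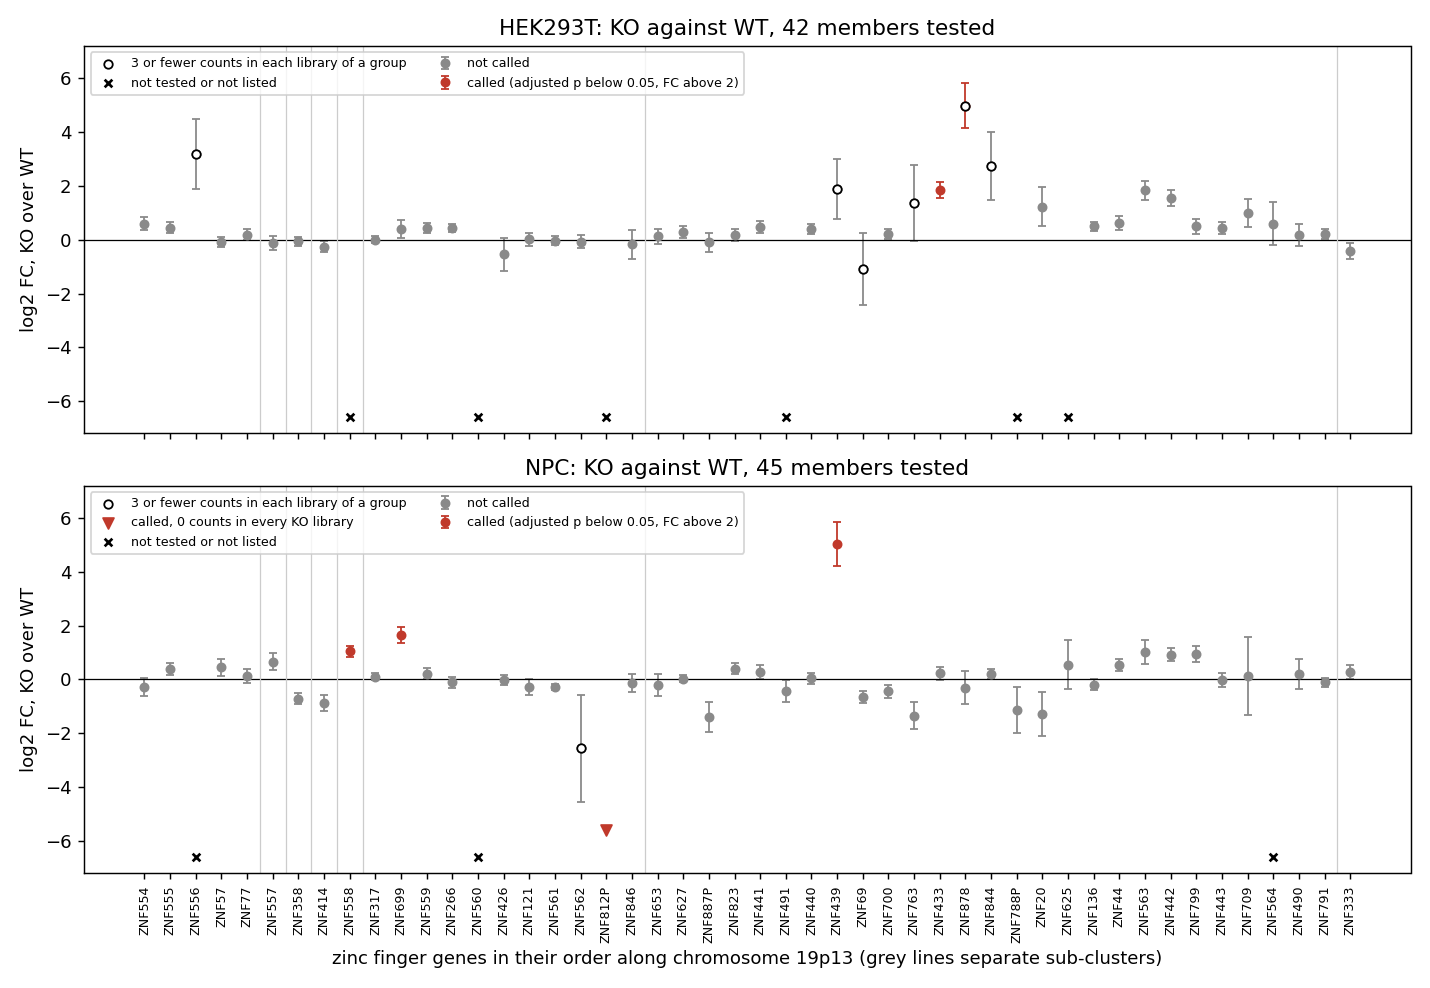
Log2 FC of KO over WT with its standard error for each of the 48 zinc finger genes, in their order along 19p13, in HEK293T (top, 42 tested) and NPCs (bottom, 45 tested). Red marks called genes, open circles mark genes with 3 or fewer counts in each library of a group, whose values are uncertain, the triangle marks ZNF812P (0 counts in KO, drawn at an arbitrary height), crosses mark genes not tested, and grey lines separate the sub-clusters. In HEK293T the points of the third sub-cluster lie mostly above 0, and in NPCs they spread on both sides.

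As a list, the members in NPCs were divided about evenly. A log2 FC above 0 was found for 23 of 45 (48.8% of all genes), and unadjusted P values below 0.05 for 5 upward and 7 downward (40.3% of all genes in either direction). KO libraries lay all above WT in 17 members and all below in 13 (33.3% and 33.8% of all genes). The median log2 FC was 0.033, against -0.022 over all genes, and it was -0.0036 with voom and -0.075 with library size alone, a scaling under which the median of all genes was -0.13. The third sub-cluster had 14 of 26 genes above 0 with a median of 0.036, and the second 3 of 10 with a median of -0.12. The first had 3 of 4 above 0 with a median of 0.26. Of the isolated members, ZNF557 (0.66), ZNF558 (1.04) and ZNF333 (0.28) were above 0, and ZNF358 (-0.72) and ZNF414 (-0.88) were below it. Among members with a KRAB A box 23 of 37 were above 0 (median 0.13), and among the 5 with fingers alone 0 were (median -0.43). Of the 7 other protein-coding genes inside the sub-clusters 0 were called, and 1 had an unadjusted P value below 0.05 (edgeR), in the downward direction. The zinc finger genes of the rest of the chromosome had 28 called up and 4 down of 210 tested, with a median of 0.23.

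The KO NPC cultures also differed from WT in cell type markers. Of 10 neural progenitor markers, 7 fell, SOX1, SOX2, SOX3, PAX6, OTX2, FABP7 and MSI1, while NES and VIM, which carry most of the summed level, were not called (summed 9720 to 9936 CPM in WT and 9639 to 10345 in KO). Of 6 neuron markers 3 fell and 1 rose (summed 1040 to 1136 CPM in WT, 154 to 201 in KO), and most of the sum was MAP2, at 1041 CPM in WT and 147 CPM in KO, whereas TUBB3 and STMN2 were not called. Of 10 mesenchymal markers 5 rose, COL1A1, COL3A1, PDGFRB, POSTN and TWIST1 (summed 1329 to 2218 CPM over the 10 in WT, 5273 to 6102 in KO). COL1A2, LUM, DCN, PRRX1 and THY1 were not called, although all 10 had a log2 FC above 0. COL1A1 was at 601 CPM in WT and 3480 CPM in KO, and COL1A2 at 953 and 1003 CPM. Of 6 pluripotency markers 4 are listed in the NPC table, of which 1 rose and 1 fell, and POU5F1 and TDGF1 are not listed there. No listed marker of these lists was at 0 in all NPC libraries. The part of these shifts in the changes of ZNF439, ZNF699, ZNF558 and ZNF812P was not tested. In HEK293T none of these markers was called (edgeR; 1 had an unadjusted P value below 0.05), with the embryonic kidney marker SALL1 at 32.8 CPM in WT and PAX2 below 1 CPM.

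The proteins through which KRAB zinc finger genes act and are packaged were followed as a list of 24 genes, 22 of them tested, among them TRIM28, SETDB1, the HP1 genes CBX1, CBX3 and CBX5, the H3K9 methyltransferases SUV39H1 and EHMT2, CTCF and the cohesin subunit RAD21. In HEK293T 0 were called, with TRIM28 alone at an unadjusted P value below 0.05 (edgeR), and the median log2 FC was -0.015. In NPCs TRIM24 fell, and 12 genes lay downward and 3 upward at an unadjusted P value below 0.05, with a median log2 FC of -0.39, in a comparison in which 8.36% of all genes were called down and 40.3% had such a P value in either direction. TRIM28 differed by a log2 FC of -0.61 (adjusted p = 0.00619) and SETDB1 by -0.61 (adjusted p = 0.00876), both below the 2-fold threshold. The part of these differences in the levels of the 19p13 genes was not tested.

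The KO effect itself was compared between the cell types by the interaction of genotype and cell type over all 10 libraries, with 44 members tested. It was called for 2 members, both with the lower log2 FC in NPCs, where 12.2% of 19255 genes were called and 6.22% in that direction. ZNF433, with 173 and 130 counts in WT and 171 and 199 in KO NPC libraries, differed by -1.60 on the log2 scale (standard error 0.396, adjusted p = 0.0175, edgeR). Its WT level in NPCs was 7.42 ± 1.09 CPM (SD, n = 2), in a table normalized apart from that of HEK293T. ZNF878 had 11 and 16 counts in WT and 10 and 13 in KO NPC libraries. It differed by -5.24 (adjusted p = 0.00653, edgeR), a fitted value that rests on the 2 counts of WT HEK293T. This value was -7.69 without WT HEK293T library S17, which held these counts, and -4.73 without S15, so its size is uncertain. Leaving out NPC library S3, S1 or S2 removed the call of ZNF433, with adjusted p of 0.0594, 0.0871 and 0.0685, and kept that of ZNF878.

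The members that came next were not called. ZNF699 differed by 1.28 in favour of NPCs (adjusted p = 0.0877, edgeR), and was called by DESeq2 alone of the tests run. ZNF844 differed by -2.44 (adjusted p = 0.0852, edgeR), with 1, 0, 0 and 3, 2, 3 counts in WT and KO HEK293T. Without WT library S15, which leaves WT libraries of 0 counts, the difference for ZNF844 was -4.13 and was called (adjusted p = 0.0465, edgeR). ZNF20 differed by -2.49 (adjusted p = 0.114, edgeR), a value that rests on few counts. It had 4, 2, 2 and 5, 8, 5 counts in WT and KO HEK293T, and 18, 8 and 3, 8 in WT and KO NPCs. Its span overlaps that of ZNF788P. Of its 50-base words, 51.5% occur under another zinc finger symbol, which may be a record that spans this same locus. Over the 40 members tested in both cell types, 18 had a log2 FC above 0 in both, 11 in HEK293T only, 3 in NPCs only and 8 in neither. The Spearman correlation of the 2 log2 FC across these 40 genes, which share no libraries, was 0.30.

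A single library set the spread of one member. ZNF426, in the second sub-cluster, had 137, 114 and 120 counts in WT HEK293T and 114, 12 and 90 in KO libraries, the 12 in S19, the deepest library. It was named after its values were seen. The other members not named here had log2 FC that did not pass the test in either cell type, and 5 of the 47 listed in HEK293T (ZNF558, ZNF560, ZNF491, ZNF788P and ZNF625) had too few counts to be tested there.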

How the data were processed

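RNA of WT and ZNF274 KO HEK293T cells and NPCs was made into stranded mRNA libraries, and the authors aligned reads to hg19 with HISAT2 and deposited unnormalized counts per gene from featureCounts, counting uniquely mapped reads only, per the labels and the study's methods. Tool versions, the annotation and the strand setting are not given in the sources used here.

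Gene positions came from GENCODE 44 lifted to hg19, which holds 23273 of the 24050 identifiers (777 were not found). Genes with a total count below the number of libraries were discarded (6 in HEK293T, 4 in NPC). edgeR 4.0.16 (R 4.3.3) was used with TMM scaling, the quasi-likelihood test and Benjamini-Hochberg adjustment over all genes, and calls needed an adjusted p below 0.05 with FC above 2. The methods' own test, voom in limma 3.58.1, was one alternative, and DESeq2 1.42.0, other scalings and filters, leaving out each library and subsets of members were others. Scripts were tested on simulated data. CPM used TMM library sizes, RPKM also the exonic length, and the library medians a pseudocount of 0.5 CPM. Counts of 3 in a library correspond to 0.0921 to 0.154 CPM and served as the floor. A KRAB A box was scored with a profile of 34 residues built from 138 windows (members scored at least 59.77 bits against a threshold of 30, and the others at most -48.9). Replicate libraries differed by more than counting noise (chi-square per degree of freedom of 9.75 to 75.2), so none was counted as a duplicate.

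Named genes were every called member, the 3 not called with the smallest P values in each comparison, the highest WT level per length in each sub-cluster, and overlapping members. ZNF426, ZNF69, ZNF562, ZNF844 across cell types and TRIM28 were chosen after their values were seen. The members and gene lists were chosen with earlier results of these data known. One gene of the embryonic kidney marker list, and the results that need it, are not reported here.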

Additional observations from a re-analysis of the deposited data

Results flagged for a closer look

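In 2 of 44 members tested the KO effect differed between the cell types by the interaction test in edgeR, which is why they are listed here. Of all 19255 genes tested, 12.2% were called, and 6.22% with the lower log2 FC in NPCs. The members were thus not called more often than genes in general. The call of ZNF433 depended on which NPC libraries were kept, as given above. For ZNF433 the log2 FC was 1.60 lower in NPCs than in HEK293T (-1.60, adjusted p = 0.0175), as it rose in 3 of 3 KO HEK293T libraries and stood at 8.19 and 6.65 CPM in WT and 8.45 and 8.96 CPM in KO NPC libraries. For ZNF878 the difference was -5.24 (adjusted p = 0.00653), with 0, 0 and 2 counts in WT HEK293T. Its size is uncertain, at -7.69 without WT HEK293T library S17 and -4.73 without S15.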

How the results depend on the processing

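In HEK293T the number of members called was 2, and 4 with DESeq2, with library size alone and with all 10 libraries in one fit, the additions being ZNF563 and ZNF442. It was 3 with voom and with no filter on low counts, both adding ZNF563. It was 0 at an adjusted p below 0.01, and 0 to 3 when a library was left out, with 0 without WT library S16. The cause was not tested. The median log2 FC of 0.40 was 0.48 with library size alone, 0.22 with edgeR's own filter, 0.33 with all 10 libraries and 0.22 over members of at least 1 CPM (a setting chosen after seeing the data), and 0.27 to 0.41 when a library was left out. In NPCs 4 members were called, and 2 to 7 when a library was left out (7 without WT library S3, 2 without KO library S2). These fits leave 1 library in a group, which is assumed to vary like the rest. The median of 0.033 turned to -0.0036 with voom and to -0.075 with library size alone, and was 0.073 over protein-coding members, 0.13 over KRAB members, 0.073 over members of at least 1 CPM and 0.0037 to 0.090 when a library was left out. The interaction called 2 members, 1 at an adjusted p below 0.01 and 1 to 3 when a library was left out. ZNF439 and ZNF812P kept their calls in NPCs under each alternative that gave a value, and ZNF812P has none in the fit of all 10 libraries. Depth limits the size of the ZNF878 change in HEK293T, where all 3 WT libraries had 3 or fewer counts, and of the ZNF439 change in NPCs, where the 2 WT libraries had 4 and 0. No paired analysis was possible because no label pairs a WT library with a KO library.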
